A study of Homo sapiens with 12 samples.

Results

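The regions described here are places in the chromatin of HEK293T cells where the growth factor HDGF was found in both of its libraries and where neither of the Integrator subunits INTS13 and INTS11 had a peak in any library. They were chosen by rule. Overlapping peaks of the 2 HDGF lists were merged, merged regions holding a peak of each list were kept on chromosomes 1 to 22 and X, and members were those that shared no base with a peak in the 2 INTS13 and the 2 INTS11 lists. There were 4360 such regions among 44211 HDGF regions (9.86%), beside 39851 HDGF regions with an Integrator peak and 325633 reproducible regions of all 5 proteins studied. The rule used the HDGF, INTS13 and INTS11 lists, so values from those lists are given as descriptions without a test.

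The study immunoprecipitated INTS13, INTS11, HDGF, ZEB1 and ZNF609 from formaldehyde-fixed HEK293T cells, with an antibody to each protein, and asked whether INTS13 and transcription factors that interact with it occupy the same loci. HEK293T is a wild-type human embryonic kidney line here, grown without treatment, and all groups come from this 1 line. Each protein had 2 libraries, and 2 libraries of input chromatin were not used here. Nothing in the labels says that replicates were separate cultures, so the spread between them may be technical.

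HDGF, hepatoma-derived growth factor, carries a PWWP domain, a fold that binds nucleosomes methylated on lysine 36 of histone H3, a mark laid down along the bodies of transcribed genes. Its relatives include PSIP1 and HDGFL2. Integrator associates with RNA polymerase II near the start of genes and at genes of small nuclear RNAs. INTS11 is its endonuclease, which cuts nascent RNA, and INTS13 belongs to a module of the complex that contacts transcription factors. ZEB1 binds DNA through zinc fingers and represses genes of epithelial cells, and ZNF609 also carries zinc fingers.

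Only 6 of the genes with a RefSeq promoter window had that window wholly inside a member region, and the members lay mostly elsewhere in genes, as set out further on. Sequences of 4 of these windows, those of highest HDGF fold rank, are shown because they are the few promoters that carried HDGF and no Integrator peak over their whole length. Each runs 5′ to 3′ on the strand of the gene, from 250 bases before to 50 bases after an annotated transcript start, and comes from RefSeq on GRCh38.p14. At RBBP9 the member lay within 1 kb of the 5′ end of the gene. At DDR2, EPB41L2 and DISP1 it lay farther than 1 kb from either end, so those windows belong to other transcript starts. Capitals mark CpG dinucleotides, which are frequent in most human promoters. DDR2 encodes a collagen receptor (chr1:162632214-162632513, plus strand). EPB41L2 encodes a membrane skeleton protein (chr6:131000680-131000979, minus strand). RBBP9 encodes a retinoblastoma-binding serine hydrolase (chr20:18497176-18497475, minus strand). DISP1 encodes a transporter-like protein that releases Hedgehog ligands (chr1:222928174-222928473, plus strand).
DDR2: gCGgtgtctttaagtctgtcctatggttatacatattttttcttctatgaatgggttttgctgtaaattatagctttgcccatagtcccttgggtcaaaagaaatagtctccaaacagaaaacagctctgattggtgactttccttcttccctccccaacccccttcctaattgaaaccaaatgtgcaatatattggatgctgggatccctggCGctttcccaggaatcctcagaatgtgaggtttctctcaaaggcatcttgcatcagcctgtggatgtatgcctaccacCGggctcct
EPB41L2: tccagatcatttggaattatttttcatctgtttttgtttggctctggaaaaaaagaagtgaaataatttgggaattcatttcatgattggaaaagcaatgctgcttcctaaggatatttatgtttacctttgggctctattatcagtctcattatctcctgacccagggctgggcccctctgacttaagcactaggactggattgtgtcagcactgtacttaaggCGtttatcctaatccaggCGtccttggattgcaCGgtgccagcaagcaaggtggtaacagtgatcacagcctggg
RBBP9: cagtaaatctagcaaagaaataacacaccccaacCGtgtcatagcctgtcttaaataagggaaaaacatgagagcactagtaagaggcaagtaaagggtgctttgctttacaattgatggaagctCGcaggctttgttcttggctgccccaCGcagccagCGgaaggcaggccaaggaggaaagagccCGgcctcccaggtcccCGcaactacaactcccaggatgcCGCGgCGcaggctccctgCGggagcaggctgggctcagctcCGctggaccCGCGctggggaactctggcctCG
DISP1: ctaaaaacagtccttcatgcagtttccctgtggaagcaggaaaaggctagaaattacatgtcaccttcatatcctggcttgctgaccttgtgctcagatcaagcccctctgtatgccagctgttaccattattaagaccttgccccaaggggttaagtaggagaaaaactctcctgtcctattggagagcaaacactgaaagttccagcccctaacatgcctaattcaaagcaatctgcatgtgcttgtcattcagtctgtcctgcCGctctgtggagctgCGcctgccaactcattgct
The windows of DDR2, EPB41L2 and DISP1 held 3, 3 and 2 CpG, and that of RBBP9 held 14. The HDGF folds over them were 3.16 in replicate 1 and 3.25 in replicate 2 at DDR2, and the same at EPB41L2. At RBBP9 the folds were 2.96 and 3.48, and at DISP1 they were 4.93 and 3.02. A fold is the authors' ratio of summit height to background for a peak in its own list.

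Promoter windows touched by a member were poor in CpG. Members overlapped 23 windows of 22 genes, with a median of 3 CpG and a median GC content of 43.0%, against 20 CpG and 62.7% for the 1420 windows touched by other HDGF regions. All 21943 windows of protein-coding genes had medians of 21 CpG and 62.3% GC. In all, 10 short motifs were searched on both strands, none of which contains another. The TATA sequence TATAAA was in 6 of the 23 windows (26.1%), against 6.27% of the windows under other HDGF regions and 9.50% of all windows. The GC box GGGCGG was in 6 (26.1%), against 60.2% and 56.3%, and the CCAAT box was in 12 (52.2%), against 38.5% and 34.7%. The E-box CACGTG was in 4 (17.4%), against 9.01% and 8.28%. The ZEB1-type E-box CAGGTG was in 1 (4.35%), against 20.5% and 20.0%. GCATGCGC was in 2, and TTTGGCGC and also CTCGCGAG in 1 each. The ETS-type CCGGAAG was in 0, against 12.8% and 12.8%, and AAGATGGCG was in 0, against 3.45% and 2.42%. Only 13 to 300 bases of these windows lay inside the member, and 23 windows are few, so these shares describe these windows. Several of the windows, such as those of RARB, LRRFIP2 and DYRK1A, were touched by a member farther than 1 kb from either end of the gene. The windows compared were not matched for being at the end of a gene or inside it.

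The member regions were narrow and of moderate HDGF height. Their median width was 640 bp (quartiles 488 and 856 bp), against 966 bp (657 and 1491 bp) for other HDGF regions, and the widest member had 3700 bp. The median fold in HDGF replicate 1 was 3.16 in members and 3.35 in other HDGF regions, and in replicate 2 it was 3.25 and 3.48. HDGF regions with an INTS13 and no INTS11 peak had the same median folds as members, 3.16 and 3.25, and a median width of 737 bp. In each HDGF list the folds were whole multiples of 1 step, of 0.197 in replicate 1 and 0.232 in replicate 2, and the lowest peaks stood at 12 and 11 steps. The medians of 16 steps in members and 17 in other HDGF regions in replicate 1, and of 14 and 15 in replicate 2, thus lay 1 step apart. The highest folds of a member were 5.92 and 6.74, against 10.5 and 10.9 among other HDGF regions. A single peak from each list made up 96.6% of members and 79.9% of other HDGF regions. Of those with an INTS13 and no INTS11 peak it made up 93.4%. In all, members covered 3.16 Mb and other HDGF regions 54.4 Mb. Read depth is unknown for these lists, so no counting error can be given for a peak.

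The share of HDGF regions that were members fell with the height and the width of the region. Each HDGF peak was ranked by fold within its list, and a region was given the lower of its 2 percentiles as its rank. Members made up 16.7% of regions ranked in the lowest 20 percentiles, 10.3% of those between 40 and 60, and 0.305%, which is 5 of 1642 regions, above 95. By width the share was 22.3% up to 500 bp and 0.815% above 2000 bp. A wider region can meet an Integrator peak in more places, which the rule itself builds in. The same order held outside stretches crowded with peaks, where the share ran from 29.6% at the lowest ranks to 1.504% at the highest. These stretches are 382 of 3038 bins of 1 Mb. In them the number of peaks, divided by the list's mean number per bin, had a median above 2 over the 10 lists, and they are called dense bins.

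**Figure D1:**
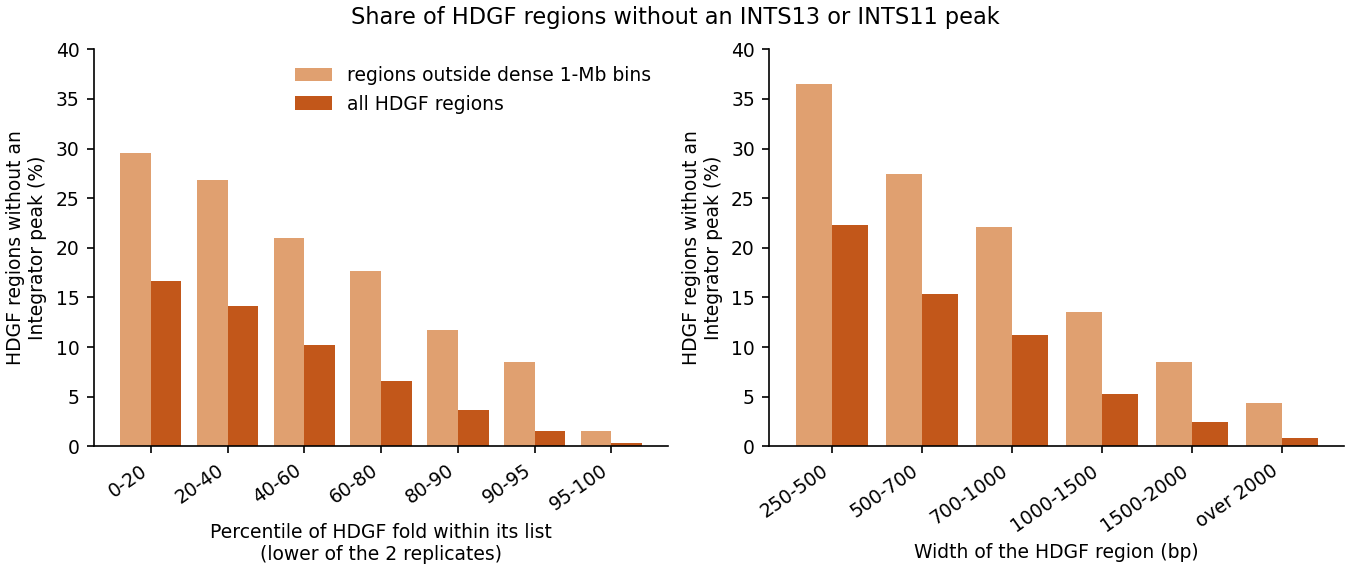
Share of HDGF regions without an Integrator peak (%), by the lower of the 2 within-list percentiles of HDGF fold (left) and by region width in bp (right), for regions outside dense 1-Mb bins (light bars) and all HDGF regions (dark bars). The share was 16.7% of all regions at the lowest ranks and 0.305% at the highest, and 22.3% of the narrowest and 0.815% of the widest.

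Absence of an Integrator peak was a matter of short distances at most members. The 4 Integrator lists together covered 549 Mb. The gap from a member to the nearest Integrator peak had a median of 678.5 bp (quartiles 272 and 1637 bp), and 2657 members (60.9%) lay within 1 kb of one. The gap was above 5 kb in 259 members (5.94%) and above 10 kb in 65, with a largest gap of 47977 bp. Peaks under the caller's limit are not in the lists, so the absence of a peak does not show the absence of the protein. The 225 members with a gap of up to 50 bp had a median width of 648 bp and median folds of 2.96 and 3.25. Just outside the rule, 244 HDGF regions shared up to 50 bp with an Integrator peak and had a median width of 655 bp and the same median folds. Protein-coding genes held 86.2% of the members just inside and 82.8% of the regions just outside.

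The 4 Integrator lists differed in how many HDGF regions they kept out. INTS13 replicate 1 overlapped 80.7% and INTS13 replicate 2 78.7% of HDGF regions, and INTS11 replicates 1 and 2 overlapped 64.2% and 45.8%. A further 2235 regions would have been members but for INTS13 replicate 1, 1455 but for INTS13 replicate 2, 525 but for INTS11 replicate 1 and 401 but for INTS11 replicate 2. The share of members was therefore 14.9% without INTS13 replicate 1. With the single peaks of HDGF replicate 2 or replicate 1 in place of the reproducible regions it was 21.2% or 24.1%.

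A larger share of members than of other HDGF regions lay inside protein-coding genes. A protein-coding gene overlapped 3799 of 4360 members (87.1%), against 71.5% of other HDGF regions and 73.1% of all HDGF regions. Regions outside every annotated gene were 357 members (8.19%), against 20.2% of other HDGF regions and 19% of all. The 9370 HDGF regions with an INTS13 and no INTS11 peak came closest to members, with 82.3% inside a protein-coding gene and 12.3% outside every annotated gene. These shares were 73.9% and 19.4% with INTS11 and no INTS13, and 68.0% and 22.8% with both. More than 50 kb from every annotated gene lay 34 members (0.780%), against 2.02% of other HDGF regions and 1.9% of all. Outside the dense bins this order was reversed, with 21 members (0.676%) against 52 other HDGF regions (0.494%). The share was 0.309% of HDGF regions with an INTS13 and no INTS11 peak. In the single lists, 80.04% and 80.41% of HDGF peaks without an Integrator peak lay inside a protein-coding gene in replicates 1 and 2, against 68.38% and 68.25% of HDGF peaks with one, a difference of 11.9 ± 0.352 percentage points (SD, n = 2). The values of the 2 lists do not overlap between the classes. No test was made over 2 lists. Outside dense bins the shares were 87.5% of members and 79.6% of other HDGF regions, a smaller difference, and inside them 86.1% and 68.6%. With HDGF peaks of -log10 q of 5 or more, which left 10 members, the difference was 31.2 percentage points. Among regions of 250 to 500 bp the shares were 84.4% and 69.1%, and among those of 1000 to 2000 bp 92.0% and 72.8%.

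At gene ends members were scarce. Within 1 kb of either end of a protein-coding or long noncoding RNA gene lay 349 members (8.005%), against 17.8% of other HDGF regions and 16.8% of all HDGF regions. The low share was not particular to members. It was 7.23% of the 1301 HDGF regions with an INTS11 and no INTS13 peak, 17.5% with INTS13 and no INTS11, and 18.4% with both. In single lists the shares were 6.60% ± 0.244 without and 13.1% ± 0.641 with an Integrator peak (SD, n = 2), a difference of -6.49 ± 0.396 percentage points. The difference over regions was -9.78 percentage points. It was -6.37 without INTS13 replicate 1, and -6.21 and -6.77 with the single peaks of HDGF replicate 1 and of replicate 2. It was -4.83 in windows of 100 bp either side of the HDGF summit, and -22.8 with the 10 members left by HDGF peaks of -log10 q of 5 or more. Narrow regions kept the order, with 7.32% of members and 14.5% of other HDGF regions between 250 and 500 bp.

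Among the ends that did carry members, 3′ ends outnumbered 5′ ends. Strand was known for 15812 protein-coding genes, through the RefSeq promoter table. A member lay within 1 kb of a 5′ end in 78 cases (1.79%), against 6.60% of other HDGF regions and 6.13% of all HDGF regions. A 3′ end was near in 156 cases (3.58%), against 5.84% of other HDGF regions and 5.61% of all. The ratio of 3′ to 5′ ends was thus 2 among members and 0.884 among other HDGF regions. HDGF regions with INTS11 and no INTS13 peak also had more 3′ than 5′ ends, 39 and 15. So did those with INTS13 and no INTS11, 658 and 480, while those with both had 1629 and 2135. In single lists the ratio was 2.30 and 1.92 for peaks without an Integrator peak, against 0.996 and 0.913 for peaks with one. Outside dense bins it was 1.77 for members and 0.878 for other HDGF regions.

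**Figure D2:**
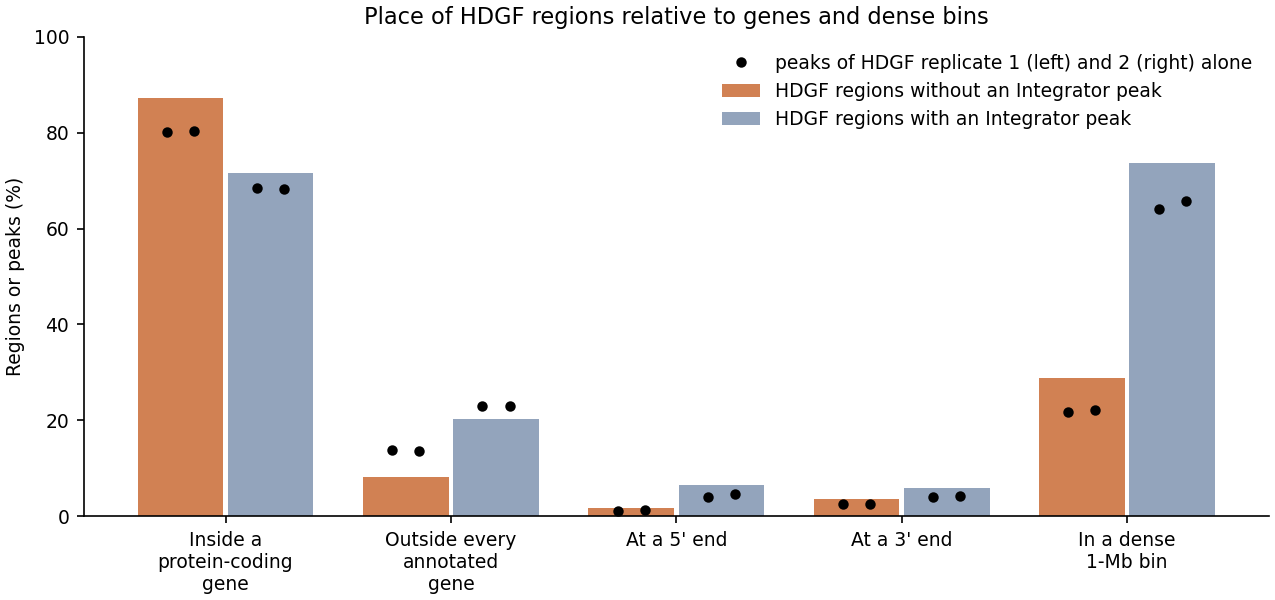
Share of HDGF regions (bars, %) without (orange) and with (blue) an Integrator peak that lay inside a protein-coding gene, outside every annotated gene, within 1 kb of a 5′ or a 3′ end, or in a dense 1-Mb bin, with the same shares for single peaks of HDGF replicates 1 and 2 (points). Inside protein-coding genes lay 87.1% of members and 71.5% of other HDGF regions, and in dense bins 28.8% of members and 73.6% of other HDGF regions.

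Along genes, the relative position of members was nearer to the 5′ end than that of other HDGF regions. Of 3099 members inside protein-coding genes of at least 10 kb with known strand, 651 (21.0%) lay in the first decile of the gene length, against 14.05% of 21787 other HDGF regions. The last decile held 7.07% of members and 10.8% of other HDGF regions. The median position was 35.9% of the way from the 5′ end in members and 45.6% in other HDGF regions. Host genes had a median length of 88.3 kb for members and 78.1 kb for other HDGF regions. In single lists the median position was 43.4% and 41.9% for peaks without an Integrator peak, against 48.5% and 47.1% for peaks with one. The 2 lists again do not overlap between the classes, but they lie closer than the reproducible regions do. Outside dense bins the medians were 32.1% in members and 41.1% in other HDGF regions. In kb from the 5′ end the medians were 23.2 kb in members and 27.9 kb in other HDGF regions, and outside dense bins they were close, at 18.7 and 18.8 kb, in host genes with median lengths of 82.9 and 59.4 kb.

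**Figure D3:**
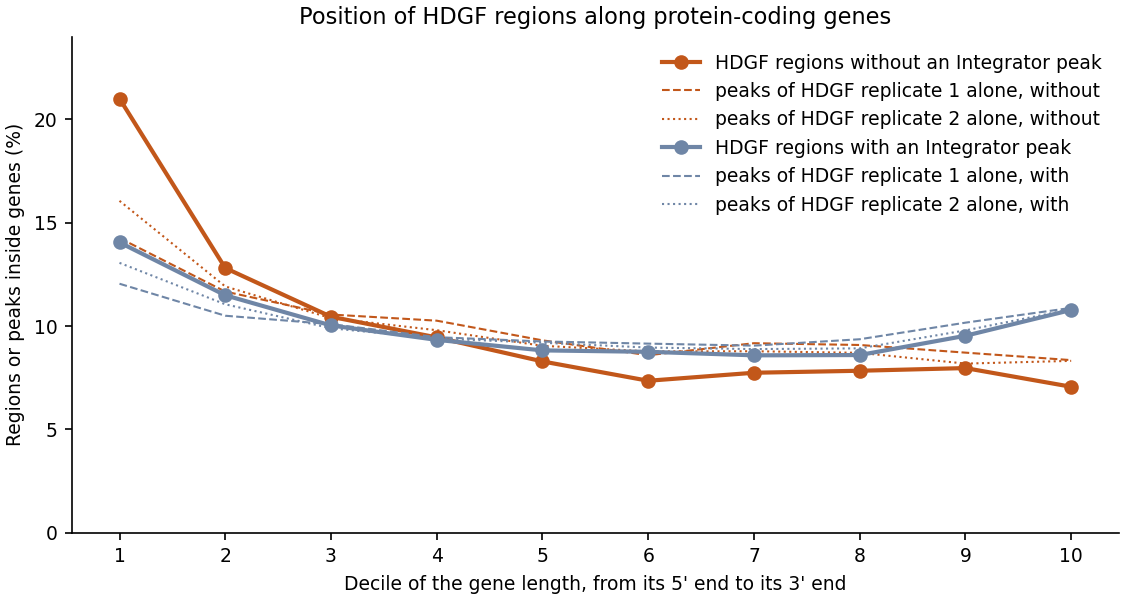
Share of HDGF regions inside protein-coding genes (%) in each decile of gene length, from the 5′ end to the 3′ end, for regions without (orange) and with (blue) an Integrator peak, with single peaks of each HDGF replicate as thin lines. The first decile held 21.0% of members and 14.05% of other HDGF regions, and the last decile 7.07% of members and 10.8% of other HDGF regions.

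Members were rare in dense bins and unevenly spread over chromosomes. Dense bins held 1255 members (28.8%), against 73.6% of other HDGF regions and 69.2% of all HDGF regions. They held 39.3% of HDGF regions with an INTS13 and no INTS11 peak, 75.4% with INTS11 and no INTS13, and 84.5% with both. In single lists they held 21.9% ± 0.416 of HDGF peaks without and 64.9% ± 1.20 of those with an Integrator peak (SD, n = 2). These bins were defined from all 10 lists, which include those of the rule, so this is a description. Of HDGF regions on chromosome 4, 167 of 429 (38.9%) were members, and on chromosomes 2 and 14 the shares were 29.4% and 26.0%. On chromosome 22 there were 36 members among 2952 HDGF regions (1.22%), on chromosome 13 the share was 2.61%, and on chromosome 1 it was 6.01% of 11199. Members occurred in 1286 bins of 1 Mb of the 1670 with an HDGF region, and no bin had more than 19.

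Peaks of ZEB1 and ZNF609, which the rule did not use, were scarce at members. ZEB1 replicates 1 and 2 had a peak at 1.93% and 2.36% of members, against 33.1% and 28.2% of other HDGF regions. ZNF609 replicates 1 and 2 had one at 3.03% and 1.24% of members, against 28.6% and 19.1%. Over all HDGF regions these 4 lists had a peak at 30.1%, 25.6%, 26.1% and 17.3%. Every list was lower at members, on average 2.14% ± 0.752 against 27.2% ± 5.91, a difference of -25.1 ± 5.52 percentage points (SD, n = 4 lists). The exact two-sided paired permutation test over the 4 lists gave p = 0.13, the smallest p it can give. Only 7.22%, 10.3%, 11.7% and 10.2% of the peaks of ZEB1 replicates 1 and 2 and ZNF609 replicates 1 and 2 had no Integrator peak. Low shares at members were therefore largely set by the rule, and the test cannot show more than that. The 4 lists are also replicates of only 2 proteins. With the single peaks of HDGF replicate 1 or of replicate 2 the difference was -15.4 or -17.1 percentage points. Members are narrower than other HDGF regions, and among regions up to the median member width of 640 bp it was -11.4. With HDGF peaks of -log10 q of 5 or more, which left 10 members, it was -62.9. Taking the 4 lists together, 92.7% of members and 52.4% of other HDGF regions had none of these peaks. This scarcity was shared by the 9370 HDGF regions with an INTS13 and no INTS11 peak. There ZEB1 replicates 1 and 2 had a peak at 4.57% and 2.84%, and ZNF609 replicates 1 and 2 at 2.82% and 1.07%. In all, 89.8% of these regions had none, against 58.9% of regions with INTS11 and no INTS13 and 40.1% of those with both.

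The difference was also computed outside and inside dense bins, which were defined from all 10 lists, those of ZEB1 and ZNF609 included. Outside them the 4 lists had a peak at 0.668% ± 0.357 of members and 3.55% ± 1.77 of other HDGF regions, a difference of -2.88 ± 1.73 percentage points (SD, n = 4 lists; exact two-sided paired permutation p = 0.13). Most peaks of the 4 lists outside dense bins also overlapped an Integrator peak, so the rule bears on that test too. Inside dense bins the shares were 5.78% ± 1.75 and 35.8% ± 7.45, a difference of -30.0 ± 6.58. As a ratio of the means, other HDGF regions stood 5.31-fold above members outside dense bins and 6.19-fold above them inside. The direction was the same in each of the 4 lists in both sets of bins. Whether the difference in percentage points differs between the sets of bins was not tested. The part of crowding in the difference over all regions was not tested.

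**Figure D4:**
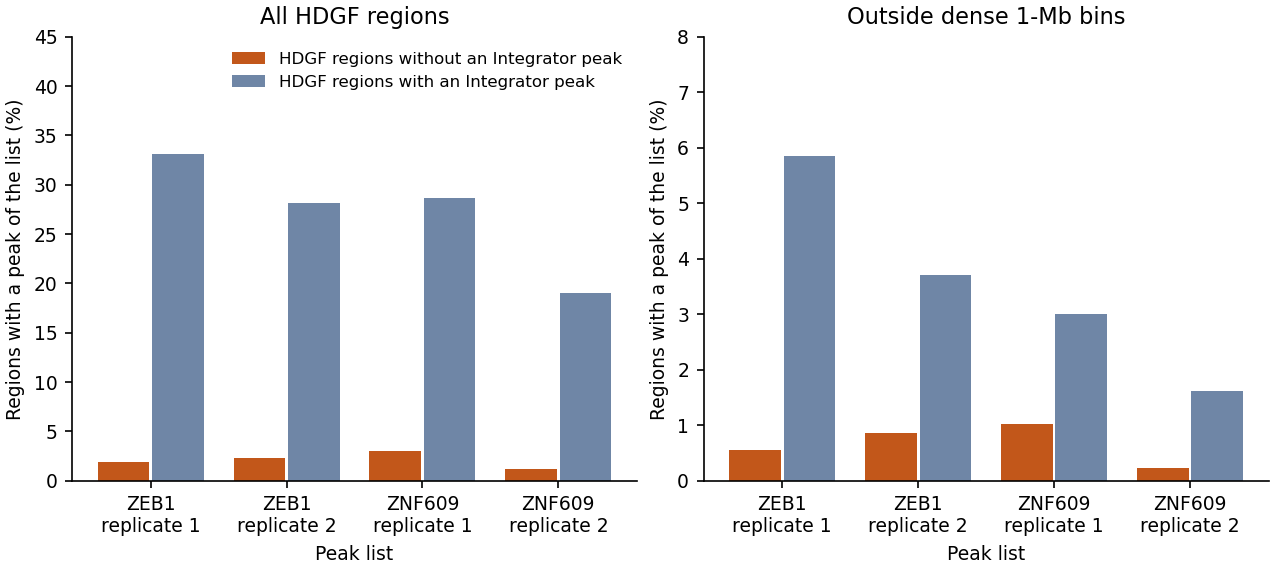
Share of HDGF regions (%) with a peak of each ZEB1 and ZNF609 list, for regions without (orange) and with (blue) an Integrator peak, over all HDGF regions (left) and outside dense 1-Mb bins (right, a smaller scale). In each list the members lie below the other HDGF regions, for example 1.93% and 33.1% for ZEB1 replicate 1.

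Peaks without an Integrator peak were a larger share of the HDGF lists than of the ZEB1 and ZNF609 lists. They were 24.1% and 21.2% of the peaks of HDGF replicates 1 and 2, against 7.22% and 10.3% in the ZEB1 lists and 11.7% and 10.2% in the ZNF609 lists. The means were 22.7% ± 2.02 (SD, n = 2) and 9.86% ± 1.89 (n = 4), a difference of 12.8 percentage points. The HDGF and Integrator lists chose the members, so this difference is a description. Among the 10000 peaks of highest -log10 p in each list the shares were 5.90% ± 0.643 in HDGF and 3.13% ± 1.39 in ZEB1 and ZNF609, a difference of 2.76. Outside dense bins the shares were 39.4% ± 2.06 in HDGF and 36.6% ± 9.46 in the others, a difference of 2.78. The 2 HDGF lists, at 40.9% and 37.9%, there lay within the range of the other 4, which ran from 22.96% to 43.08%.

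Of the 20 members of highest rank, 17 were inside a protein-coding gene, beside 87.1% of all members. In dense bins lay 11 of the 20, beside 28.8% of all members, and 4 had a ZEB1 or ZNF609 peak, beside 7.29% of all members. Their gaps to the nearest Integrator peak were between 57 and 4517 bp, and 3141 other HDGF regions ranked at or above the lowest of them. The first lay in NPM1, the gene of the nucleolar chaperone nucleophosmin, 18.2 kb from its 5′ end (chr5:171404759-171405955). Its folds were 5.32 and 5.34 in HDGF replicates 1 and 2, it lay 1222 bp from an Integrator peak, and it overlapped a peak of ZEB1 replicate 1. A region in CBX3, the gene of the heterochromatin protein HP1-gamma (chr7:26207060-26208907), had folds of 4.34 and 5.11 and the largest gap of the 20, 4517 bp. A region in RBMX, a nuclear RNA-binding protein on chromosome X, had folds of 4.54 and 4.65, and one in U2SURP, a protein associated with the U2 small nuclear ribonucleoprotein, had 4.14 and 5.11. UBE2T, a ubiquitin-conjugating enzyme of the Fanconi anaemia pathway, had a region with folds of 4.34 and 4.65 that overlapped a peak of ZEB1 replicate 1. MLLT3, a chromatin reader of the super elongation complex, had one of 2360 bp with folds of 4.14 and 4.88.

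The rest of the 20 had folds from 3.94 in replicate 1 and from 4.41 in replicate 2. They included regions in the gene of the zinc exporter SLC30A1, the actin regulator NCKAP1, the SET domain protein SETD5, the translational repressor GIGYF2, the tetraspanin TSPAN3, the phosphatase subunit PPP4R2 and the transcription factor TFAP2A. Regions in ACBD6, an acyl-CoA-binding protein, and DSC3, a desmosomal cadherin, overlapped a peak of ZNF609 replicate 1. ERMAP, a membrane protein of red cells, and the gene LOC124900338 also held one each. The remaining 3 of the 20 lay on chromosomes 17, 1 and 6 in no protein-coding gene.

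Few genes carried a member at an end, and many carried one inside. Of 19974 protein-coding genes, 266 (1.33%) had a member within 1 kb of either end, against 4226 (21.2%) with another HDGF region there. A member lay inside 2219 genes (11.1%), against 6628 (33.2%) for other HDGF regions. Of the 2219, 1375 held 1 member, 405 held 3 or more and 105 held 5 or more. In 815 of them all HDGF regions in the gene were members.

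Of the 25 genes with the highest-ranking member at an end, 10 had a member at the 5′ and 14 at the 3′ end. HSF2, with a separate member at each end, counts under both, and 2 genes had no strand. ZNF333, a zinc finger gene on chromosome 19, came first, with folds of 3.94 and 5.11 at its 5′ end, 45 bp from an Integrator peak. EEF1A1, the gene of translation elongation factor 1 alpha, had a member at its 3′ end (chr6:73516629-73517549) with folds of 4.14 and 4.18. Other 3′ ends were those of the ribosomal protein gene RPS13, the Polycomb gene BMI1 together with the readthrough gene COMMD3-BMI1, the endoplasmic reticulum chaperone gene HSPA5 and the nuclear receptor coactivator gene NCOA1. Their folds were 3.55 and 3.95 at RPS13, 3.55 and 3.72 at BMI1, 3.75 and 3.72 at HSPA5 and 3.94 and 3.72 at NCOA1. SETD6, a lysine methyltransferase gene, UTP3, SERINC3, TEAD3, ARL6IP5 and its neighbour LMOD3, which share 1 region, and LOC124901232 completed the 3′ ends. The 5′ ends were those of PRKACB, a catalytic subunit of protein kinase A, GCLM, a subunit of the enzyme that starts glutathione synthesis, SENP8, NCOA7, BBX, BDH2, BCL9, a Wnt coactivator, and LOC124902508. ERLIN1 and LOC124901231 had no strand. An INTS13 region lay at the 5′ end of 16 of the 23 genes with strand (69.6%), beside 60.1% of all protein-coding genes with strand. Of the 25 genes, 8 also had another HDGF region at an end.

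Some genes held many members. The genes in this paragraph were picked by their number of members after the values were seen. ROBO1, the receptor of the guidance ligand SLIT2, held 16 members among its 22 HDGF regions over 1171 kb, and SLIT2 itself held 13 of 13. ADGRL2, an adhesion receptor, held 12 of 22, and KMT2E, a PHD and SET domain protein, 10 of 15 in 100.8 kb. SEMA3C, a secreted semaphorin, held 9 of 13, APP, the amyloid precursor protein, 9 of 19, and PTBP2, a splicing regulator of neurons, 8 of 11. HNRNPD, an RNA-binding protein of AU-rich messages, held 8 of 9 within 21.5 kb, which is 37.2 per 100 kb and the highest density among the 193 genes with 4 or more members. HSF2, a heat shock transcription factor, held 8 of 10 in 33.6 kb. MLLT3 held 12 of 41, DCAF6 10 of 34 and ARID1B, a subunit of the BAF remodelling complex, 10 of 88, so that members were the smaller part of HDGF regions there.

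The series in SLIT2 spread from 4.96 to 254.9 kb from the 5′ end, with 11 of the 13 regions in the first 67.5 kb. Widths there were between 414 and 1105 bp, folds between 2.56 and 3.75 in replicate 1 and between 2.56 and 4.88 in replicate 2, and the median gap to an Integrator peak was 4888 bp. In HNRNPD the 8 members spread from 2.76 to 19.8 kb, with folds of 2.96 to 3.55 in replicate 1 and 2.79 to 4.41 in replicate 2. The 1 HDGF region with an Integrator peak in HNRNPD lay nearest to the 5′ end. In HSF2 the members spread from 2.33 to 32.5 kb with folds of 2.37 to 4.54 and 3.02 to 4.41. In ROBO1 they began 736 kb from the 5′ end of the longest annotated form. An INTS13 region lay at the 5′ end of SLIT2, ROBO1, KMT2E, HNRNPD, HSF2 and APP, and an INTS11 region at that of APP among these 6. Regions of 1 gene are not independent of each other. The counts depended on the setting. With single peaks of 1 HDGF list in place of regions they reached 41 in SLIT2, 79 in ROBO1 and 11 in HNRNPD. With HDGF peaks of -log10 q of 5 or more, MLLT3 held 1 member and the other 11 genes named for their counts 0. Where an Integrator peak within 1 kb counted, SLIT2 held 11, ROBO1 13, HNRNPD 6 and HSF2 6, but MLLT3, DCAF6 and SEMA3C held 4 each and ARID1B 2. ARID1B held 19 without INTS13 replicate 1, and 16 without INTS13 replicate 2 or INTS11 replicate 2.

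**Figure D5:**
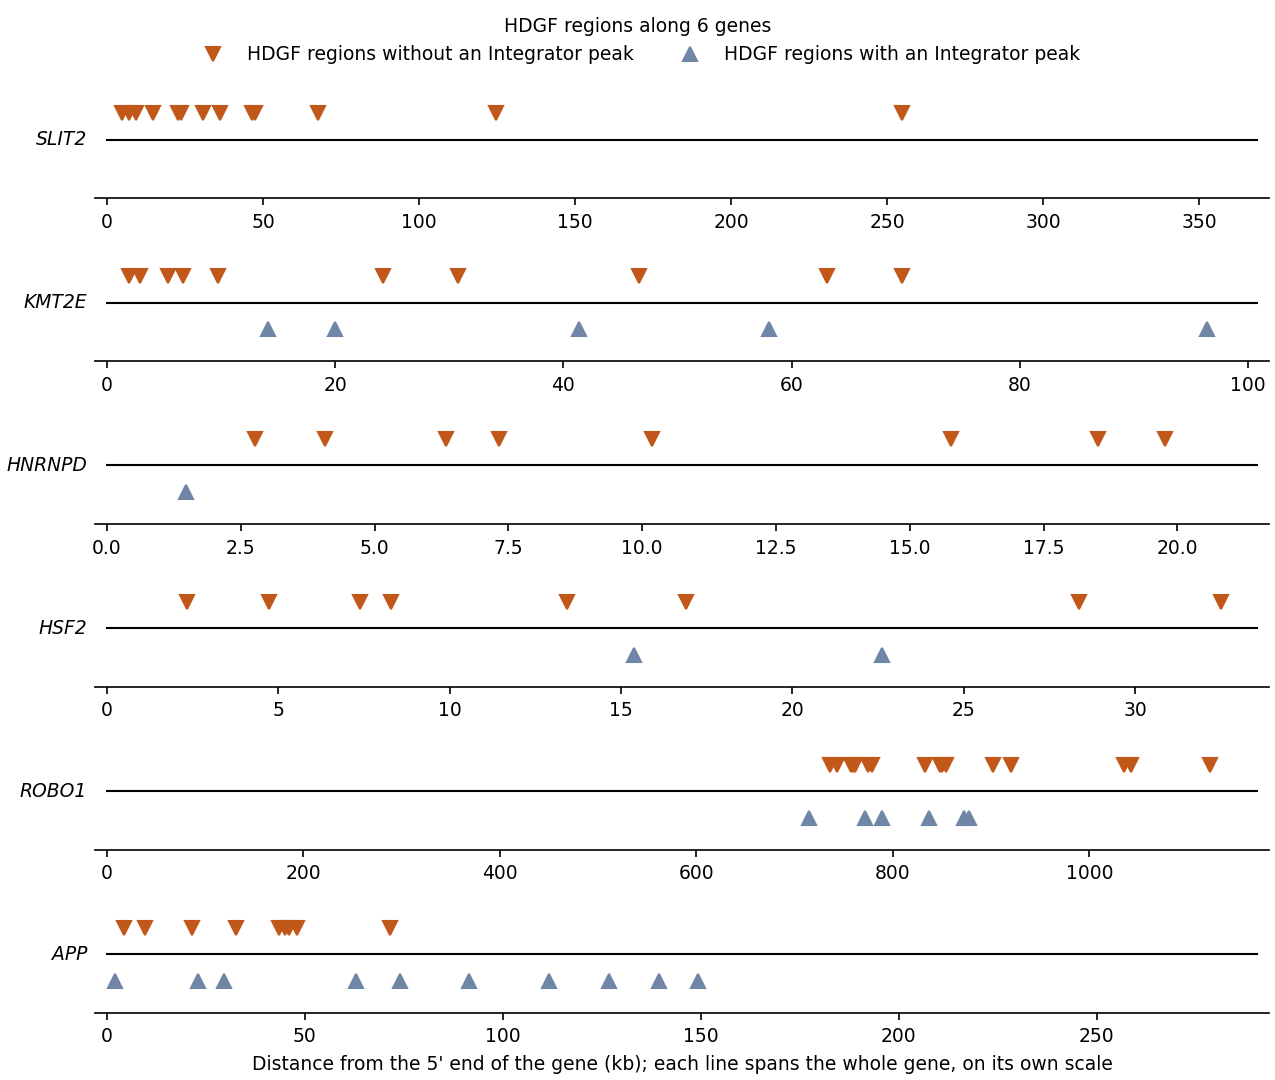
Position of HDGF regions without (orange, above the line) and with (blue, below) an Integrator peak along SLIT2, KMT2E, HNRNPD, HSF2, ROBO1 and APP, as distance from the 5′ end in kb, each gene on its own scale. All 13 regions in SLIT2 and 8 of 9 in HNRNPD had no Integrator peak, and those in ROBO1 lay beyond 700 kb.

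In 61 genes with 3 or more members, all HDGF regions inside the gene were members, also a choice made after the values were seen. They included the cell cycle kinase CDK1 with 4 members in 16.5 kb and the condensin subunits SMC4 with 6 in 35.3 kb and NCAPG with 4. CBX3, the polymerase subunit POLR2B, the exonuclease XRN2, which degrades RNA behind a cleavage site, the Polycomb subunit EED, the clathrin heavy chain CLTC and the Hippo pathway effector YAP1 held 3 each.

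The share of genes with INTS13 at the 5′ end was higher among genes with a member inside than among protein-coding genes at large, and lower than among genes whose HDGF regions all had an Integrator peak. An INTS13 region lay within 1 kb of the 5′ end of 74.4% of 1894 genes with a member inside and known strand, against 60.1% of all 15812. It lay at 91.8% of genes with an Integrator-bearing HDGF region and no member, and at 43.2% of genes with no HDGF region inside. For INTS11 the shares were 18.6%, against 15.2% of all genes, 35.3% and 5.57%. Length differed, with a median of 67.6 kb for genes with a member inside, against 24.2 kb for all. Among genes of 50 to 200 kb the INTS13 shares were 74.4% with a member inside, 57.0% for all, 86.4% with an Integrator-bearing HDGF region and no member and 35.8% with no HDGF region inside. The rule used INTS13, so these shares carry no test.

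Gene lists were read against the share of all protein-coding genes with a member inside, 11.1%, and at an end, 1.33%. Gene length was not matched, and the lists have median lengths between 4.501 and 59.3 kb. Members lay inside 12 of 39 translation factor genes, with a median length of 17.7 kb, and at the ends of 2, EEF1A1 and EIF1AX. Of these 39 genes, 25 held another HDGF region. EIF4B, a cofactor of the helicase that unwinds messenger RNA leaders, held 5 members, the highest with folds of 3.35 and 3.95. EIF3A, a scaffold of initiation factor 3, held 1 with folds of 3.75 and 3.95 beside 12 other HDGF regions. EIF1AX, which helps select the start codon, held 3 and no other HDGF region. Of 79 genes of cytosolic ribosomal proteins, 12 held a member and 4 had one at an end. RPS10 and RPL14 were the highest of these, with folds of 3.75 and 4.41 and of 3.55 and 4.41, followed by RPS13, and then by RPL37A, whose folds were 3.94 and 3.72. Other HDGF regions lay inside 53 of the 79.

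Among other gene lists of basic cell functions, members lay inside 10 of 77 genes of mitochondrial ribosomal proteins, 12 of 75 of nuclear oxidative phosphorylation subunits, 7 of 37 of spliceosome proteins and 8 of 31 of proteasome subunits. In the same order, other HDGF regions lay inside 34, 33, 27 and 16 genes of these lists, beside 33.2% of all protein-coding genes. Members lay at the ends of 2, 5, 2 and 0 genes of these lists. The highest were MRPL17, with folds of 3.35 and 4.18, NDUFA13, a complex I subunit, with 3.75 and 4.18, SRSF6, a splicing factor, with 3.55 and 3.72, and PSMC2, an ATPase of the proteasome cap, with 3.55 and 3.72. Next in these lists came MRPS25, MRPS10 and MRPL50, then NDUFA5, ATP5F1C and ATP5F1E, then SNRPC, SF3A2 and SNRPE, and then PSMB5, PSMD6 and PSMB2. Of 19 genes of cholesterol synthesis, 6 held a member, 0 had one at an end and 8 held another HDGF region. CYP51A1, the lanosterol demethylase, held 2, and SQLE, the squalene epoxidase, held 1 with folds of 4.34 and 3.48, with HSD17B7 and DHCR7 next.

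Of 21 genes of the HDGF family and of methylation of lysine 36 on histone H3, 9 held a member (42.9%), in a list with a median length of 55.4 kb. Longer genes held members more often, with 1045 of all 4862 protein-coding genes of 50 to 200 kb, beside 11.1% of genes of any length. Other HDGF regions lay inside 14 of the 21. The demethylase gene KDM2A held 6 members beside 9 other HDGF regions, and its highest had folds of 3.55 and 4.18. SETD2, the enzyme of the trimethyl mark, held 5 beside 19, ASH1L, a methyltransferase, 3 beside 60, and MORF4L1, a reader of the mark, 3 beside 5. NSD3, another methyltransferase, held 4 and no other HDGF region. Of 15 Integrator subunit genes, INTS7 held 4 members, and INTS14 and INTS1 1 each. Genes with a member in the list of 31 genes of DNA replication and E2F targets included PCNA, the sliding clamp, which held 2 with folds up to 3.75 and 3.95, and RRM1 and MCM3, which held 1 each. Among 20 p53 target genes, MDM2 held 3 and POLH 1. Another HDGF region lay inside 8 of the 15 Integrator subunit genes, 19 of the 31 replication and E2F genes and 9 of the 20 p53 targets.

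Lists of immediate early, neuronal, and liver and erythroid genes held few members or none. Members lay inside 0 of 29 immediate early genes, whose median length is 4.501 kb and of which 13 held another HDGF region. They lay inside 1 of 20 neuronal genes, GRIN1, with folds of 2.96 and 3.25, and 0 of 19 liver and erythroid genes. Another HDGF region lay inside 4 neuronal and 2 liver and erythroid genes. At the ends of the genes of these 3 lists there were 0 members. The shares of all protein-coding genes, 11.1% inside and 1.33% at an end, also correspond to few genes in lists of this size.

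Small RNA genes were seldom under an HDGF region, with or without an Integrator peak. A snoRNA gene overlapped 13 members (0.298%), against 0.223% of other HDGF regions, and a miRNA gene 5 (0.115%), against 0.341%. No tRNA and no snRNA gene lay under a member, and 3 and 1 of the 39851 other HDGF regions overlapped one, counts too few to compare. The snoRNA hosts included genes of ribosomal proteins, with SNORD73A in RPS3A, SNORD72 in RPL37, SNORD15A in RPS3 and SNORD4A in RPL23A, and of the snoRNP protein NOP58, with SNORD11B. At RPL37 the folds were 3.55 and 3.02, and at NOP58 3.16 and 3.95. One member in LARP7 (chr4:112647707-112648556) spanned the genes of MIR302A, MIR302B, MIR302C, MIR302D and MIR367, a cluster known from pluripotent cells, with folds of 3.16 and 2.79. Others lay over MIR103A1 in PANK3 and MIR7-1 in HNRNPK.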

How the data were processed

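The authors deposited 1 list of peaks per library, made with FastQC, Trimmomatic, Bowtie, Picard and MACS2, per the submitters' processing notes. Any tool version, control, threshold or genome build is not given in the sources used here. GRCh38 was inferred from contig names of alternate loci. Each deposited peak has a fold (a linear ratio), a -log10 p-value and q-value and a score, which are the authors' own values and were used within a list only. Peaks had been called per library, and gaps in their running numbers show that some were removed before deposit.

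The members, gene lists and tests were chosen with earlier results of these data known. Chosen after seeing the data were the comparisons inside genes, along genes and between 3′ and 5′ ends, genes picked by member number, host genes, and the HDGF list comparison outside dense bins. Overlap was 1 bp or more. RefSeq on GRCh38.p14 gave 59098 genes and, through 22132 promoter windows, the strand of 15812. Named regions are the 20 of highest lower percentile, and named genes the 25 with such a member within 1 kb of an end and up to 4 per list of 14 lists, with the other genes in the text named after their values were seen. Python 3.11.15, NumPy 2.4.6, pandas 2.3.3, SciPy 1.17.1 and matplotlib 3.10.9 were used. Interval overlaps were tested on simulated data. ZEB1 and ZNF609 shares were compared by exact permutation over lists. The permutation test foreseen for the share of list peaks without an Integrator peak is not given, since those lists chose the members. Read depth is unknown, so no counting error is given.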

Additional observations from a re-analysis of the deposited data

How the results depend on the processing

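The differences in gene ends, dense bins, gene bodies and ZEB1 and ZNF609 peaks kept their direction in the alternatives given here for each. The difference in list shares kept its direction as a difference of means, but not against each list outside dense bins. The paired test of ZEB1 and ZNF609 peaks is too small to pass 0.05. Stricter Integrator peaks, Integrator regions of both replicates and the larger overlap were run for the share of members and the named regions and genes, and the 3′ to 5′ ratio and the position along genes were recomputed in single lists and outside dense bins only. The share of HDGF regions without an Integrator peak, 9.86%, was between 10.8% and 24.1% when 1 HDGF or Integrator list was left out. Using fewer Integrator peaks, or asking for a larger overlap with them, can only raise this share. It was 40.01% when only Integrator peaks with a -log10 q of 5 or more counted, 20.9% with Integrator regions of both replicates only, 19.1% when 0.5 of the region had to overlap, 16.0% in windows of 100 bp either side of the HDGF summit, 3.85% when a peak within 1 kb counted, and 0.502%, or 10 regions, with HDGF peaks of -log10 q of 5 or more. The following 4 settings are, in order, HDGF peaks of -log10 q of 5 or more, the margin of 1 kb, summit windows and regions up to the median member width. The difference at gene ends was -22.8, -10.7, -4.83 and -7.39 percentage points under them, -13.3 outside dense bins, -7.26 and -8.83 with windows of 500 bp and 2 kb, and -9.95 to -6.21 with 1 list left out. In dense bins it was -31.7, -56.7, -37.2 and -38.0, and -47.8 to -40.4 with 1 list left out. Inside protein-coding genes it was 31.2, 17.4, 16.5 and 15.1, 7.94 outside dense bins, and 11.7 to 15.9 with 1 list left out. For ZEB1 and ZNF609 peaks it was -62.9, -24.7, -16.8 and -11.4, -2.88 outside dense bins, and -27.5 to -15.4 with 1 list left out. The cause of these shifts was not tested. The difference between the HDGF lists and the ZEB1 and ZNF609 lists, 12.8 percentage points, was 11.3 to 18.6 with 1 list left out. It fell to 2.76 among the 10000 peaks of highest -log10 p in each list and to 2.78 outside dense bins. There both ZNF609 lists, at 42.9% and 43.1%, stood above both HDGF lists, at 40.9% and 37.9%. Both ZEB1 lists, at 22.96% and 37.5%, stood below them. With the replicate number as a block the difference over all peaks stayed at 12.8. Nothing in the labels says that the numbers mark shared cultures. Leaving out an Integrator list cannot remove a member, so that all 20 named regions stayed members there was fixed by the rule. Of the 20, 6 were still members with the margin of 1 kb, 7 in summit windows and 10 with the stricter HDGF peaks. A named region was counted where a member of the setting covered part of its middle 100 bp, which a summit window can miss.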
